A study of Homo sapiens with 74 samples.

Results

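The immediate early genes EGR1, FOS, FOSB, FOSL1, JUN, JUNB, JUND, ATF3, IER2 and DUSP6 were followed through the messenger RNA profiles of 2 human leukaemia cell lines depleted of members of the DOT1L complex. They were chosen by name, as classical rapid-response genes, with earlier results of these data known. All 10 were found among the 28131 genes of each deposited table. K562, a line from a chronic myeloid leukaemia in blast crisis that carries the BCR-ABL1 fusion kinase, was profiled as wild-type control, with DOT1L knocked out (DOT1L-/-) and with ENL knocked out (ENL-/-, gene symbol MLLT1). HEL, an erythroleukaemia line with an activating JAK2 mutation, was profiled as control and with a DOT1L knockdown. DOT1L is the methyltransferase of lysine 79 of histone H3, and ENL is a reader of acetylated histones found in its complex. The series was designed to ask what this complex does in transcriptional regulation. After removal of a duplicated column there were 2 K562 control, 3 K562 DOT1L KO, 3 K562 ENL KO, 2 HEL control and 2 HEL DOT1L KD libraries. Both lines grew in serum-containing medium, and no stimulus, age or drug is given for any group. Whether a knockout line is 1 clone, and which reagent produced the knockdown, is not given in the sources used here.

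Immediate early genes are switched on within minutes of a growth factor, stress or differentiation signal, without new protein synthesis. Extracellular signals reach them mainly through the Ras-ERK, JNK and p38 kinase cascades, which act on serum response factor (SRF) with its ETS-type partners at CArG boxes and on CREB and ATF factors at cyclic AMP response elements (CRE). Their products are mostly transcription factors: EGR1 is a zinc finger protein, and Fos and Jun proteins pair through leucine zippers to form AP-1. The transcripts are short-lived, and in blood cells EGR1 and AP-1 are best known for their part in monocytic and megakaryocytic differentiation.

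The members are compact genes. JUN, JUNB and JUND have a single exon, so 3 of 10 members were intronless, against 4.85% of the 14877 genes that were tested in either line and lie at 1 place in the genome. The median span of the members was 4130.5 bases and that of the tested genes 26315 bases, and 9 of the 10 members were shorter than that median. The exception was ATF3 (chromosome 1, 212565334 to 212620777, GRCh38, plus strand, 6 exon blocks). EGR1 lies on chromosome 5 from 138465492 to 138469315 (plus strand, 2 exons), JUN on chromosome 1 from 58780791 to 58784113 (minus strand) and DUSP6 on chromosome 12 from 89347825 to 89352859 (minus strand, 3 exons). Chromosome 19 holds 4 members, namely JUNB (12791496 to 12793311, plus strand), IER2 (13150468 to 13154904, plus strand), JUND (18279694 to 18281656, minus strand) and FOSB (45467995 to 45475179, plus strand). FOS is on chromosome 14 from 75278828 to 75282230 (plus strand) and FOSL1 on chromosome 11 from 65892136 to 65900526 (minus strand). No other gene of the tables with a single locus overlapped a member, so their counts do not compete with a neighbour in this annotation.

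The promoters of 4 members are shown because these genes carry the main contrasts of the values that follow: EGR1 and JUND were lower in every depleted group, JUN moved against them in both DOT1L-depleted groups, and FOSB had the lowest fraction of its control level in the ENL KO. The sequences are those of RefSeq on GRCh38.p14, from up to 250 bases before the annotated start, leaving out bases inside the gene as the deposited tables define it. Capitals mark matches on either strand to a CArG box, to the CRE (TGACGTCA), to its half-site (TGACG), to the AP-1 site TGACTCA or to a TATA box (TATAAA). The half-site also lies inside every full CRE.
EGR1 promoter, chr5:138465229-138465478, plus strand: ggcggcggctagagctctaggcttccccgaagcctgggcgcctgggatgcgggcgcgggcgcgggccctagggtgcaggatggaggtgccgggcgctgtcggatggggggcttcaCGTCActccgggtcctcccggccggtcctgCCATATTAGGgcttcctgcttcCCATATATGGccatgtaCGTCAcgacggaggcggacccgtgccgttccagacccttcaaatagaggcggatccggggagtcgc
JUND promoter, chr19:18281657-18281872, minus strand: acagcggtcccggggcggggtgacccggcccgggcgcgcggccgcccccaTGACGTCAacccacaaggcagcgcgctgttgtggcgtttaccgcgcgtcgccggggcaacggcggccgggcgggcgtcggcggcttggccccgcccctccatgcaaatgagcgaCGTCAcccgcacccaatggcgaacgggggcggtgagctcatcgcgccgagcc
JUN promoter, chr1:58784114-58784297, minus strand: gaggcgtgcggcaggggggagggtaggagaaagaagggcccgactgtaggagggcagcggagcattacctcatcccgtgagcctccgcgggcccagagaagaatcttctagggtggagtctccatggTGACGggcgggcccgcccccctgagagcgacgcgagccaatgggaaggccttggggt
FOSB promoter, chr19:45467746-45467994, plus strand: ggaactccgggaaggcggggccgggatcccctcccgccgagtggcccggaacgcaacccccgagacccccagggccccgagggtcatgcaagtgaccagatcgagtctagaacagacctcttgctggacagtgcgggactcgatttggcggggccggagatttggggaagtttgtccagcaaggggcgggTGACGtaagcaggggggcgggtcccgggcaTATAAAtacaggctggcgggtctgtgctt

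The EGR1 promoter held 2 CArG boxes, at 74 to 83 and 96 to 105 bases before the start, and none was found in the windows of the other 8 members with an entry in the promoter table. Of 35116 such windows of 250 bases, 1.16% held a CArG box and 0.0313% held 2 or more. The full CRE was found for JUND alone (1.65% of all windows). A half-site was present for 7 members (EGR1, FOS, FOSB, JUN, JUNB, JUND and IER2), against 21.2% of all windows. The letters TATAAA were present for 4 members (FOS, FOSB, JUNB and the downstream start of ATF3), against 10.7%. They lay 25 to 33 bases before the start of FOS, FOSB and JUNB, but 225 to 230 bases before that of ATF3. Matches were counted over all 250 bases of a window. For DUSP6 and the downstream start of ATF3 the whole window lies inside the gene of the deposited tables. The AP-1 site was in none of the members' windows and in 4.2% of all windows. These matches describe the letters in the window only.

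The libraries held 15404944 to 29236703 counts in K562 and 12151495 to 12811688 in HEL, and 3 counts, the limit that a count of 0 allows, were worth between 0.101 and 0.244 CPM (the usual count-per-library-total unit, scaled between libraries by TMM). The targeted genes were lower in their own groups by edgeR's quasi-likelihood test, although which part of each gene was edited is not given and reads outside it check nothing. DOT1L changed by a log2 fold change of -0.53 in the K562 DOT1L KO and by -1.64 in the HEL knockdown, and MLLT1 by -0.48 in the ENL KO (adjusted p 4.09e-06, 2.22e-28 and 5.26e-06). All 9 erythroid markers were detected in both lines. Of 6 megakaryocytic markers, 4 had 0 counts in both K562 controls, and 5 lymphoid markers together stayed between 1.21 and 3.09 CPM in every group. The ENL KO labels name no sequencing lane whereas those of the other K562 libraries do, so a batch of the ENL KO cannot be told apart from the knockout. Bulk RNA does not distinguish fewer cells with a transcript from less of it in each cell.

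At the level of the unmanipulated lines, K562 had the higher level per transcript length of every member except DUSP6. In K562 controls EGR1 stood at 196 ± 7.73 RPKM (CPM divided by the exonic length in kilobases, SD, n = 2), followed by JUND at 183 ± 6.05 and IER2 at 169 ± 13.0. JUNB followed at 78.4 RPKM. FOSL1 and FOS, at 18.0 and 16.6 RPKM, overlapped in their libraries, whereas the other neighbours in this order did not. JUN, ATF3 and FOSB came next at 12.6, 5.77 and 0.775 RPKM. DUSP6, the phosphatase that switches off ERK, had 0 counts in both K562 controls. In HEL controls the order was JUND at 38.4 RPKM, JUNB at 22.8, IER2 at 16.7, FOSL1 at 5.86, DUSP6 at 5.03, JUN at 3.64, EGR1 at 2.91 and ATF3 at 2.03. Only FOSL1 with DUSP6, and FOSB with FOS at 0.179 and 0.151 RPKM, overlapped there. EGR1 thus ranked 1st of the 10 in K562 and 7th in HEL. The 2 lines come from separately made tables of fragments and of reads, so these levels are set side by side without a test.

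**Figure D1:**
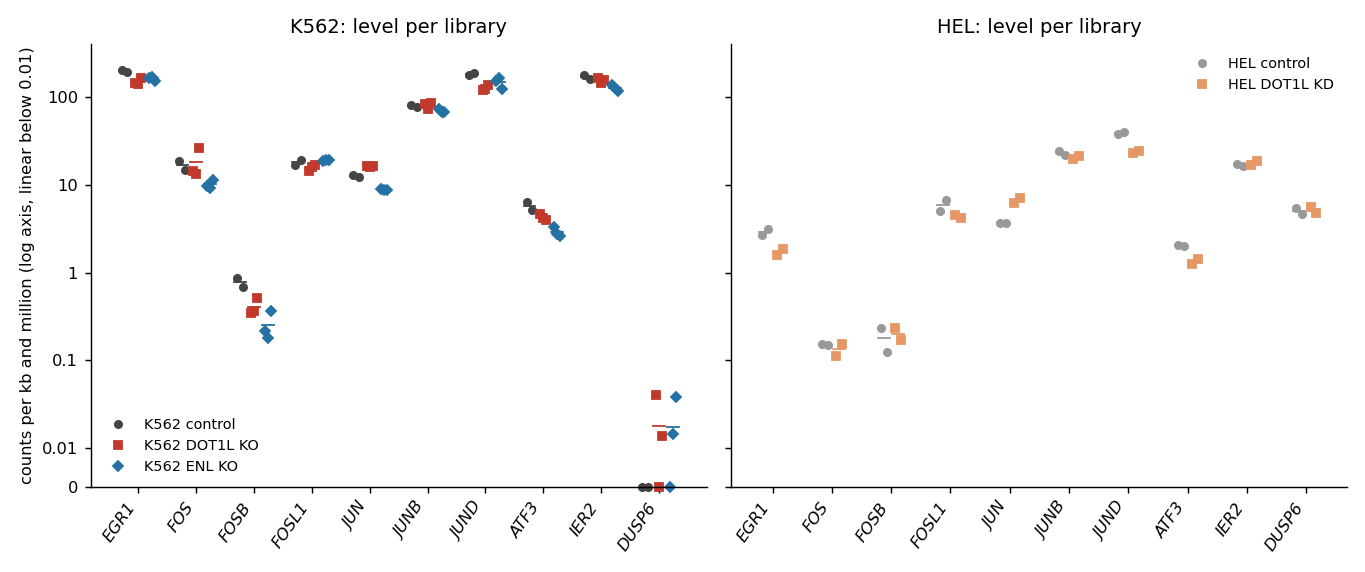
Level of each immediate early gene in every library, in RPKM (CPM per kilobase of exon, on a log axis that turns linear below 0.01), for K562 at left and HEL at right. Points are libraries and short lines group means; EGR1 is the highest member in K562 controls (196) and DUSP6 is at or near 0 in all 8 K562 libraries but at 5.03 in HEL controls.

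In the K562 DOT1L KO the members moved apart: JUN rose, and EGR1, FOSB, JUND and ATF3 fell. FOS, FOSL1, JUNB and IER2 did not pass the threshold (adjusted p of 0.05), and DUSP6 had too few counts to be tested. Thus 5 of 9 tested members passed, 1 higher and 4 lower. The background was 51.1% of 14301 tested genes, 26.9% higher and 24.2% lower, so the count of members is close to that of any gene. The median log2 fold change of the members was -0.19, against 0.01 for all tested genes. In 6 of the 9 members the KO and control libraries did not overlap, which was true of 68.1% of all tested genes. Without K562 control 1 the count fell to 3, since FOSB (-0.76, edgeR adjusted p 0.092) and ATF3 (-0.28, edgeR adjusted p 0.175) no longer passed.

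In the K562 ENL KO no member rose. EGR1, FOS, FOSB, JUN, JUND, ATF3 and IER2 fell, and JUNB and FOSL1 did not pass. This made 7 of 9 tested members past the threshold, all lower, against 41.0% of all tested genes, of which 18.8% were higher and 22.2% lower. The median log2 fold change was -0.42, against 0.00 for all tested genes. Libraries of the 2 groups did not overlap in 8 of 9 members and in 59.6% of all tested genes. Without K562 control 1 the count was 4: EGR1 (-0.23, edgeR adjusted p 0.0659), FOS (-0.56, edgeR adjusted p 0.182) and JUND (-0.35, edgeR adjusted p 0.0553) were then short of the threshold. FOS was also short of it without ENL KO 2 (edgeR adjusted p 0.079) and with DESeq2 (adjusted p 0.0896), and JUND without control 2 (edgeR adjusted p 0.115).

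The knockouts were also compared with each other, since both were read against the same 2 control libraries. FOS, FOSB, JUN, JUNB, ATF3 and IER2 were higher in the DOT1L KO than in the ENL KO, and FOSL1 was lower. That was 6 higher and 1 lower of 9 tested members, against 60.2% of all tested genes (31.8% higher and 28.3% lower), with a median log2 fold change of 0.28. The groups did not overlap in 5 of 9 members and in 63.3% of all tested genes. EGR1 and JUND did not pass in this direct comparison (log2 fold change -0.11 and -0.20, edgeR adjusted p 0.132 and 0.0587). Both passed without DOT1L KO 3 (edgeR adjusted p 0.0202 and 0.0411), and JUND passed without ENL KO 3 as well (edgeR adjusted p 0.00103). FOSB lost its call in 4 of 6 fits that left out a library, with edgeR adjusted p of 0.0524 without DOT1L KO 2, 0.153 without DOT1L KO 3, 0.116 without ENL KO 1 and 0.182 without ENL KO 2, and also with DESeq2 (adjusted p 0.068).

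In the HEL DOT1L KD, JUN rose again, and EGR1, FOSL1, JUNB, JUND and ATF3 fell. IER2, DUSP6 and FOSB did not pass, and FOS was too low to be tested. Of 9 tested members 6 passed, 1 higher and 5 lower, against 55.0% of 12635 tested genes (27.0% higher and 28.0% lower). The median log2 fold change was -0.17, against 0.01 for all tested genes. Control and KD libraries did not overlap in 6 of 9 members and in 75.9% of all tested genes. Libraries of a HEL group spread less than those of K562, with a fitted coefficient of variation of 1.83% against 6.34%. P-values in HEL rest on that narrow spread and are not comparable with those of K562. Whether the HEL replicates are separate cultures is not given. The calls of EGR1, JUN and JUND held in each fit without 1 library. FOSL1 lost its call without control 2 (-0.22, edgeR adjusted p 0.354) and without KD 2 (-0.38, edgeR adjusted p 0.0726). ATF3 lost it without control 1 or KD 1 (edgeR adjusted p 0.0605 and 0.113), as did JUNB (-0.10 and -0.12, edgeR adjusted p 0.353 and 0.259). DESeq2 called EGR1, JUN and JUND only, and with upper-quartile scaling JUNB was at -0.10 (edgeR adjusted p 0.265). That scaling also moved the higher calls of all genes from 49.1% to 61.4% of calls.

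**Figure D2:**
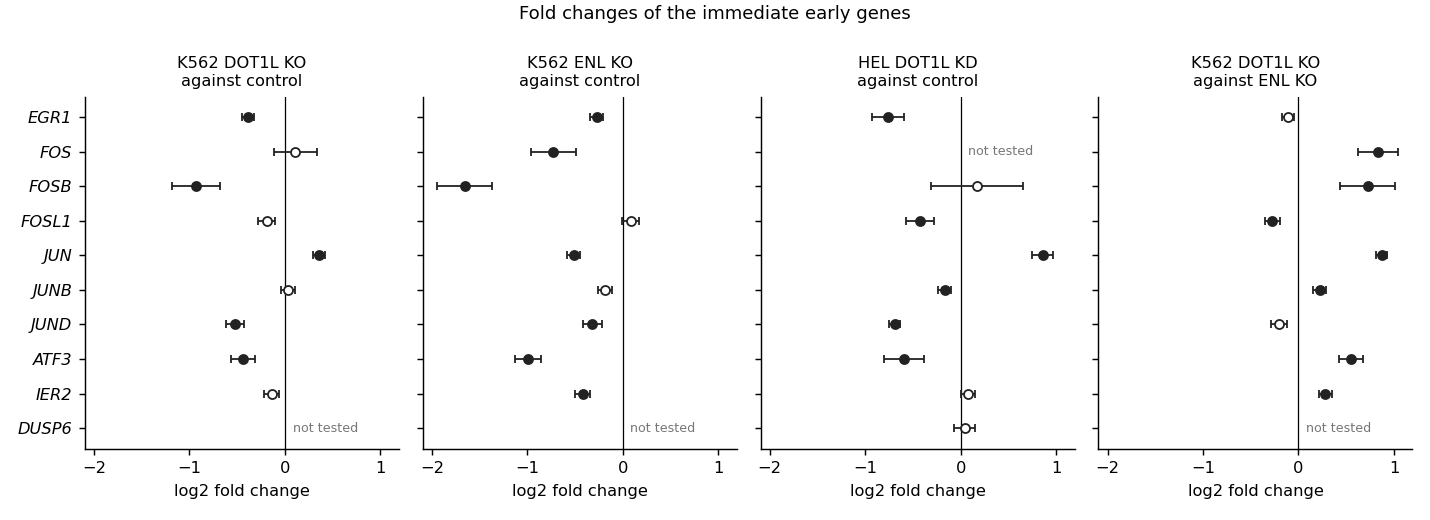
Log2 fold change of each member (point) in the 4 comparisons, from edgeR's quasi-likelihood fits. Bars are standard errors derived from the F statistic of the test. Filled points passed the adjusted p threshold of 0.05 and open points did not. JUN lies at 0.36 and 0.86 in the DOT1L KO and KD and at -0.51 in the ENL KO, while EGR1, JUND and ATF3 lie below 0 in all 3 comparisons with a control.

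EGR1, a zinc finger activator of growth and differentiation genes, had 632 and 598 CPM in the 2 K562 controls. It had 456, 442 and 514 CPM in the 3 DOT1L KO libraries and 515, 530 and 480 CPM in the 3 ENL KO libraries. Every knockout library of either kind was below both controls, and the knockouts overlapped each other. Its log2 fold change was -0.39 (SE 0.0675, edgeR adjusted p 0.000319) in the DOT1L KO and -0.28 (SE 0.0677, edgeR adjusted p 0.00529) in the ENL KO. HEL controls had 8.39 and 9.84 CPM of EGR1 and the KD 5.01 and 5.77 CPM, again without overlap. The log2 fold change there was -0.76 (SE 0.166, edgeR adjusted p 0.000114), from counts between 63 and 124 a library, where K562 had 7369 to 13595. Of tested genes, 40.5% changed by more than EGR1 in the DOT1L KO, 46.8% in the ENL KO and 10.8% in the HEL KD.

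The Jun genes, whose products form AP-1 with each other or with Fos proteins, went in different directions. JUN had 42.9 and 41.1 CPM in K562 controls, 54.9, 52.8 and 54.0 CPM in the DOT1L KO and 29.9, 29.2 and 29.1 CPM in the ENL KO. All 3 groups were apart, with the DOT1L KO above and the ENL KO below the controls. The log2 fold changes were 0.36 (SE 0.0658, edgeR adjusted p 0.000474) and -0.51 (SE 0.0676, edgeR adjusted p 4.17e-05), and 0.87 (SE 0.0603, edgeR adjusted p 3.02e-08) between the knockouts. In HEL, JUN had 12.1 CPM in both controls and 20.5 and 23.4 CPM in the KD. Its log2 difference was 0.86 (SE 0.110, edgeR adjusted p 2.59e-09), 1.81-fold on the linear scale, and 8.33% of tested HEL genes changed by more.

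JUND, the Jun protein that is least dependent on stimulation, had 351 and 368 CPM in K562 controls. It had 238, 244 and 271 CPM in the DOT1L KO and 297, 326 and 242 CPM in the ENL KO. All 6 knockout libraries were below the controls, and ENL KO 3 was the lowest of its group. The log2 fold changes were -0.52 (SE 0.0963, edgeR adjusted p 0.000498) and -0.32 (SE 0.0966, edgeR adjusted p 0.0179), and without ENL KO 3 the latter was -0.21 (edgeR adjusted p 0.0342). HEL controls had 73.7 and 77.2 CPM of JUND and the KD 45.6 and 47.8 CPM, giving -0.69 (SE 0.0577, edgeR adjusted p 4.91e-15). No library of the KD came near a control. Larger changes than that of JUND were seen for 31.2% of tested genes in the DOT1L KO, 42.2% in the ENL KO and 12.8% in the HEL KD.

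JUNB, which can oppose JUN in growth control, stayed between 121 and 155 CPM in all 8 K562 libraries. Its DOT1L KO libraries (151, 132 and 155 CPM) lay around the controls (146 and 139 CPM), which gave 0.03 on the log2 scale (SE 0.0729, edgeR adjusted p 0.740). The ENL KO libraries (132, 121 and 121 CPM) were all below the controls, at -0.19 (SE 0.0731, edgeR adjusted p 0.0524), just short of the threshold. This change passed under 6 alternatives and stayed short under 8, and without ENL KO 1 it was -0.23 (edgeR adjusted p 0.0216). Its HEL levels were 43.5 and 39.5 CPM in the controls against 35.7 and 38.1 CPM in the KD, at -0.17 (SE 0.0721, edgeR adjusted p 0.0436).

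As a share of the summed per-length level of the 3 Jun transcripts, JUN made up 4.61% in K562 controls, 7.25% after loss of DOT1L and 3.97% after loss of ENL. In HEL it went from 5.61% in controls to 13.0% in the KD. JUND was the most abundant Jun transcript in every group. Its share was 66.8% in K562 controls, 57.0% without DOT1L and 65.2% without ENL, and it was 59.2% in HEL controls and 46.9% in the KD. The summed Jun level was 274 RPKM in K562 controls, 224 in either knockout, 64.9 in HEL controls and 50.7 in the KD, so the larger share of JUN came within a smaller total.

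**Figure D3:**
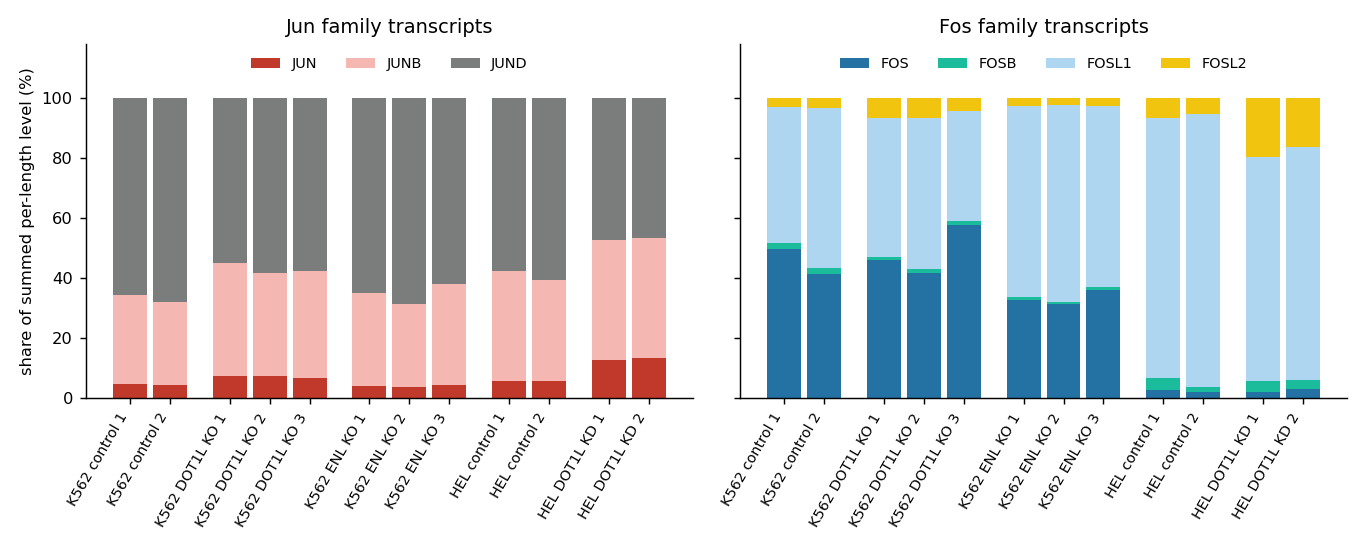
Composition of the Jun family (left) and Fos family (right, with FOSL2) in each of the 12 libraries, as percent of the family's summed RPKM. JUN takes 4.61% of the Jun total in K562 controls against 7.25% in the DOT1L KO, and 5.61% in HEL controls against 13.0% in the KD; FOSL1 makes up 88.8% of the Fos total in HEL controls and 76.1% in the KD.

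The Fos genes encode proteins that bind DNA only as partners of Jun proteins, and their transcripts differed in level and in spread. FOS had 38.8 and 31.1 CPM in K562 controls, 30.3, 27.9 and 55.3 CPM in the DOT1L KO and 20.3, 19.2 and 24.1 CPM in the ENL KO. DOT1L KO 3 was above and the other DOT1L KO libraries were below both controls. The log2 fold change was 0.11 (SE 0.225, edgeR adjusted p 0.725) in the DOT1L KO, turned to -0.26 (edgeR adjusted p 0.110) without DOT1L KO 3, and was -0.05 (edgeR adjusted p 0.913) without control 2. In the ENL KO, where every library was below the controls, it was -0.73 (SE 0.233, edgeR adjusted p 0.0231). Between the knockouts it was 0.83 (SE 0.210, edgeR adjusted p 0.00372), and 0.46 (edgeR adjusted p 0.00596) without DOT1L KO 3. In HEL, FOS had 3 or 4 counts in each of the 4 libraries, at the edge of what this depth can detect.

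FOSB had 3.25 and 2.60 CPM in K562 controls, 1.32, 1.39 and 1.94 CPM in the DOT1L KO and 0.821, 0.681 and 1.37 CPM in the ENL KO. Both knockouts were below the controls in every library, and ENL KO 3 reached into the range of the DOT1L KO. The log2 fold changes were -0.93 (SE 0.255, edgeR adjusted p 0.00784) and -1.66 (SE 0.289, edgeR adjusted p 0.000446), resting on 29 to 41 and on 14 to 21 counts a library. The difference of the knockouts was 0.73 (SE 0.289, edgeR adjusted p 0.0438). In HEL it had 6 to 11 counts a library, and its change of 0.17 (SE 0.484, edgeR adjusted p 0.787) had too wide an error to give a direction.

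FOSL1, the Fos relative that stays high in many transformed cells, had 29.5 and 33.5 CPM in K562 controls, 25.4, 28.0 and 29.3 CPM in the DOT1L KO and 32.9, 33.5 and 33.5 CPM in the ENL KO. The DOT1L KO libraries lay just below the lower control, at -0.19 (SE 0.0854, edgeR adjusted p 0.0769), and the ENL KO libraries were close to the higher control, at 0.08 (SE 0.0860, edgeR adjusted p 0.487). The knockouts differed by -0.27 (SE 0.0770, edgeR adjusted p 0.00759). In HEL the controls had 8.87 and 11.7 CPM and the KD 7.87 and 7.40 CPM, at -0.43 (SE 0.151, edgeR adjusted p 0.0143). FOSL1 made up 49.3% of the summed Fos family level in K562 controls, 44.4% after DOT1L knockout and 63.2% after ENL knockout. In HEL the share was 88.8% in controls and 76.1% in the KD, while that of FOSL2 went from 5.98% to 18.0%.

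ATF3, a stress-induced bZIP repressor, had 16.3 and 13.1 CPM in K562 controls, 11.8, 10.7 and 9.99 CPM in the DOT1L KO and 8.36, 7.06 and 6.64 CPM in the ENL KO. The 3 groups did not overlap, with the ENL KO lowest. The log2 fold changes were -0.44 (SE 0.125, edgeR adjusted p 0.0102) and -0.99 (SE 0.133, edgeR adjusted p 4.95e-05), and the knockouts differed by 0.55 (SE 0.124, edgeR adjusted p 0.0016). In HEL it had 5.27 and 5.08 CPM in the controls and 3.18 and 3.66 CPM in the KD, at -0.60 (SE 0.208, edgeR adjusted p 0.0131).

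IER2, a small nuclear protein of the primary growth response, had 364 and 326 CPM in K562 controls. It had 331, 291 and 319 CPM in the DOT1L KO, which overlapped the controls, and 279, 257 and 237 CPM in the ENL KO, which did not. The log2 fold changes were -0.14 (SE 0.0763, edgeR adjusted p 0.148) and -0.42 (SE 0.0763, edgeR adjusted p 0.000608), and the knockouts differed by 0.28 (SE 0.0688, edgeR adjusted p 0.00299). HEL controls had 35.1 and 33.3 CPM of IER2 and the KD 34.0 and 38.2 CPM, at 0.08 (SE 0.0764, edgeR adjusted p 0.408). DUSP6 had 3, 0 and 1 counts in the 3 DOT1L KO libraries and 0, 1 and 2 in the ENL KO, none above the limit that a count of 0 allows. In HEL it had 18.5 and 15.7 CPM in the controls and 18.9 and 16.3 CPM in the KD, with a change of 0.04 (SE 0.109, edgeR adjusted p 0.757).

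**Figure D4:**
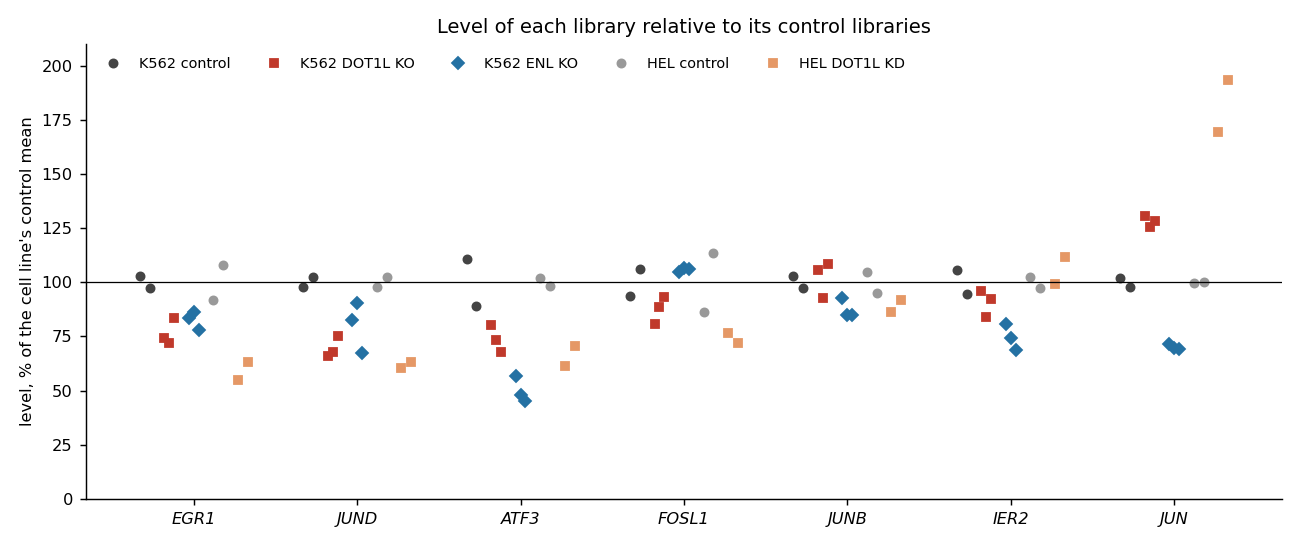
Level of 7 members in each library as percent of the mean of the control libraries of the same cell line (100% line). JUN lies at 126 to 131% in the K562 DOT1L KO, 170 to 194% in the HEL KD and 69.3 to 71.3% in the K562 ENL KO, whereas EGR1 and JUND lie below 100% in every depleted library of both lines.

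Whether the response to DOT1L loss differed between the lines was tested as the K562 log2 fold change minus that of HEL, in a joint fit of 9 libraries. Of 10 members tested, 1 passed, namely JUN, against 38.9% of 15367 tested genes. The difference was -0.52 (SE 0.127, edgeR adjusted p 0.00243), and the separate fits gave 0.36 in K562 and 0.86 in HEL. FOS had 3 or 4 counts a library in HEL, and DUSP6 had 0 to 3 in K562. Their differences had an SE of 1.52 and 1.77, so the test could say little about either gene. For EGR1, JUND and ATF3, which fell in both lines, the differences were 0.35 (SE 0.178, edgeR adjusted p 0.127), 0.15 (SE 0.0929, edgeR adjusted p 0.213) and 0.14 (SE 0.243, edgeR adjusted p 0.719). A p that misses the threshold does not show that the lines responded alike. In this fit the cell line goes together with knockout against knockdown and with fragment against read counting, which cannot be told apart. IER2 passed without K562 control 2 (-0.32, edgeR adjusted p 0.0354) or without DOT1L KO 1 (-0.28, edgeR adjusted p 0.0257), and JUNB without DOT1L KO 2 (0.28, edgeR adjusted p 0.0291).

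The transcripts whose pattern was most like that of a member were found by the root mean square difference of log2 CPM, centred on the controls of each line, over the 12 libraries. The candidates were 10153 genes that were tested in both lines and had a mean of at least 5 CPM over all 12 libraries. Those nearest to EGR1 were PSAT1 (0.103), RNF169 (0.108) and NOLC1 (0.110), and JUND ranked 4th (0.110). The next member was FOSL1 at rank 613. Nearest to JUN were FURIN (0.104), HYLS1 (0.129) and SNX19 (0.136). IER2 at rank 1221 was the member closest to JUN, and EGR1 was at rank 8739 and JUND at rank 8865. The distances describe these libraries and carry no test.

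The related lists are read against the shares of all tested genes, which were 24.2% lower and 26.9% higher in the DOT1L KO, 22.2% lower and 18.8% higher in the ENL KO, and 28.0% lower and 27.0% higher in the HEL KD. Of the other primary response genes, 32 transcripts induced like the members, 14 of 27 tested fell in the DOT1L KO and 5 rose, with a median of -0.39. Their ENL KO counts, 8 lower and 4 higher of 27, were near the shares of all genes, with a median of -0.16. In HEL 2 of 20 tested fell, fewer than the 28.0% of all genes, and 7 rose, with a median of 0.00. NR4A1, an orphan nuclear receptor, had 9.90 and 7.57 CPM in K562 controls and 2.08 to 2.51 CPM in the 6 knockout libraries, a log2 fold change of -1.87 in each knockout (edgeR adjusted p 4.13e-07 and 9.36e-07). GADD45B, a stress sensor, fell by 1.61 in the DOT1L KO, and IER5L by 1.65 in the ENL KO (edgeR adjusted p 0.000506 and 7.68e-05). BTG2, an antiproliferative gene, rose in the DOT1L KO (1.03, edgeR adjusted p 2.13e-08) and in the HEL KD (1.38, edgeR adjusted p 2.61e-33), where it had 246 and 236 CPM against 92.8 and 92.7 CPM. FOSL2, the remaining Fos gene, rose by 1.41 in the HEL KD (edgeR adjusted p 1.31e-05). In K562, FOSL2 had 4.37 and 4.92 CPM in controls, 7.95 to 8.61 CPM in the DOT1L KO and 2.87 to 3.52 CPM in the ENL KO. PTGS2, which encodes the inducible cyclooxygenase, had 0 and 1 counts in K562 controls and 0 in every ENL KO library, but 40, 70 and 62 in the DOT1L KO.

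Of 16 genes of ERK pathway output and feedback, 9 of 15 tested fell and 2 rose in the DOT1L KO, against 24.2% and 26.9% of all genes, with a median of -0.41. In the ENL KO 7 fell and 1 rose, against 22.2% and 18.8% (median -0.35). In the HEL KD, 4 of 11 tested fell and 3 rose, near the 28.0% and 27.0% of all genes (median -0.13). SPRY4, an inhibitor of receptor signalling to Ras, had 67.7 and 69.1 CPM in K562 controls and 32.6 to 33.2 CPM in the DOT1L KO, which is -1.06 on the log2 scale (SE 0.0649, edgeR adjusted p 1.73e-08). In HEL it had 0 counts in every library. Its relative SPRY1 went the other way, with 8 and 10 counts in controls and 107, 195 and 129 in the DOT1L KO. CCND1, which encodes cyclin D1, rose in the ENL KO by 2.01 (edgeR adjusted p 1.26e-09). DUSP7, like DUSP6 a phosphatase of ERK, fell in HEL by 1.15 (edgeR adjusted p 5.95e-29) from 199 and 189 to 87.2 CPM in both KD libraries.

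Among the 12 other bZIP partners of AP-1, 5 of 10 tested rose and 2 fell in the DOT1L KO, 1 rose and 5 fell in the ENL KO, and 3 rose and none fell in HEL. The shares of all genes were 26.9% higher and 24.2% lower, 18.8% and 22.2%, and 27.0% and 28.0%, so that the 2 that fell in the DOT1L KO, the 1 that rose in the ENL KO and the 3 that rose in HEL were near them. The medians were 0.19, -0.20 and 0.12. JDP2, a Jun dimerization protein, had 3.77 and 4.63 CPM in K562 controls, 13.4 to 16.2 CPM in the DOT1L KO and 0.326 to 0.730 CPM in the ENL KO. That was 1.79 and -3.02 on the log2 scale (edgeR adjusted p 5.43e-07 and 8.06e-07). BATF, an AP-1 factor of lymphocytes, had 2 and 3 counts in controls, 98, 126 and 82 in the DOT1L KO and 2 or 3 in the ENL KO. BATF3 fell in the ENL KO by 1.89 (edgeR adjusted p 0.000297).

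The kinases and factors upstream of the members were called in both directions. Of the 16 genes of the Ras-ERK cascade, 5 fell and 3 rose in each knockout, which is near the shares of all genes (24.2% lower and 26.9% higher, and 22.2% and 18.8%). In HEL 7 of 15 tested fell and 3 rose, against 28.0% and 27.0%. MAP2K1, which encodes the kinase of ERK, fell by 0.55 in each knockout (edgeR adjusted p 8.3e-06 and 1.34e-05), and SOS1, the exchange factor of Ras, was higher in the DOT1L KO (0.34) and ENL KO (0.71) but lower in the HEL KD (-0.76, edgeR adjusted p 0.000546, 1.41e-06 and 5.88e-24). Of 13 tested genes of the JNK and p38 cascade, 7 fell and 1 rose in the DOT1L KO, 4 fell and 1 rose in the ENL KO and 4 fell and 2 rose in HEL, set against the same shares of all genes. MAPKAPK2, a kinase downstream of p38, was the gene that rose in both knockouts (0.51 and 0.36), and it rose in HEL by 0.52 (edgeR adjusted p 5.14e-06, 0.000171 and 1.43e-16). MAPK14 of the same list fell in HEL by 0.67 (edgeR adjusted p 7.83e-22). In K562, MAPK14 had 95.4 and 89.5 CPM in controls, 59.8 to 63.4 CPM in the DOT1L KO and 86.4 to 91.6 CPM in the ENL KO. Of 11 SRF cofactors and CREB factors, 1 fell and 2 rose in the DOT1L KO, 1 fell and 1 rose in the ENL KO, and 3 fell and 4 rose in HEL, again beside those shares. ELK3, an ETS-type partner of SRF, fell in both knockouts (-1.15 and -1.30) and was higher in the HEL KD (1.25, edgeR adjusted p 2.24e-06, 1.49e-06 and 3.58e-17).

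**Figure D5:**
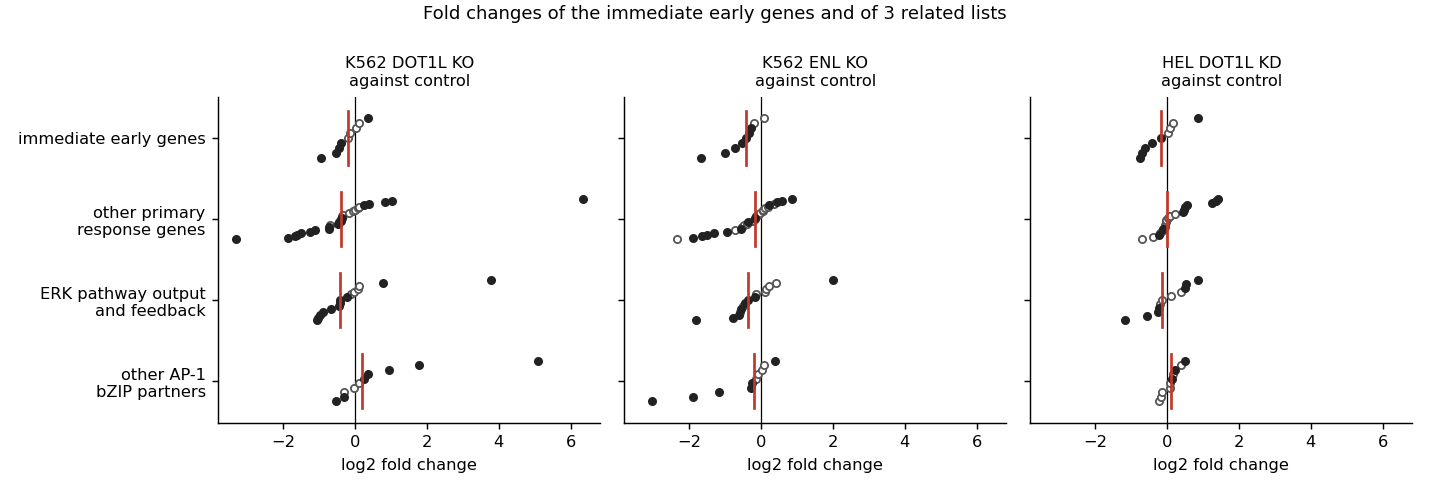
Log2 fold change of each tested gene of the immediate early genes and of 3 related lists in the comparisons with a control; filled points passed the adjusted p threshold of 0.05, open points did not, and red lines are list medians. The medians of the other primary response genes are -0.39, -0.16 and 0.00; the position of genes with 3 or fewer counts in a group, such as PTGS2 and BATF, depends on the prior count of the fit.

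Markers of cell state moved with the groups as well. The summed level of the 9 erythroid markers was 2974 to 3216 CPM in K562 controls, 4877 to 5192 in the DOT1L KO and 3642 to 3931 in the ENL KO. The HEL sum was 4500 to 4594 CPM in controls and 6368 to 7065 in the KD. All 9 rose in the DOT1L KO, 7 in the ENL KO and 7 in HEL, and none fell. Of all tested genes 26.9%, 18.8% and 27.0% were higher and 24.2%, 22.2% and 28.0% lower in these comparisons. The 6 megakaryocytic markers summed to 7.30 to 9.93 CPM in K562 controls, 33.3 to 35.0 in the DOT1L KO and 29.4 to 36.9 in the ENL KO, and went from 2559 to 2618 CPM in HEL controls to 2011 to 2013 in the KD. The 5 monocytic and granulocytic markers summed to 61.1 to 62.3, 300.4 to 332.8 and 58.5 to 59.0 CPM in the 3 K562 groups and to 97.6 to 102.0 and 82.3 to 84.2 CPM in HEL controls and KD. In the DOT1L KO this sum rose with LYZ (3.19, edgeR adjusted p 6.7e-12), the lysozyme gene, while CD68, a macrophage marker, fell by 1.50 (edgeR adjusted p 6.62e-09). Their part in the changes of the immediate early genes was not tested.

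Heat shock genes, which like the members respond to handling of cells, served as a marker of stress. Of 11, 7 fell and none rose in the DOT1L KO, 2 fell and 2 rose in the ENL KO, and 1 fell and 5 rose of 9 tested in HEL. The ENL KO counts were near the shares of all genes (22.2% lower and 18.8% higher), and the DOT1L KO and HEL shares were 24.2% and 28.0% lower and 26.9% and 27.0% higher. Their summed level was 7177 to 7545 CPM in K562 controls, 6031 to 6396 in the DOT1L KO and 7546 to 7722 in the ENL KO, and 4787 to 4978 in HEL controls and 5367 to 5379 in the KD. HSPA1A and HSPA1B, near-identical copies whose reads may be split or dropped, fell by 0.83 and 0.90 in the DOT1L KO (edgeR adjusted p 4.07e-06 and 0.00148). Their part in the changes of the immediate early genes was not tested.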

How the data were processed

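Messenger RNA was measured in 13 of the 74 samples of the series. The authors deposited counts per gene, fragments for K562 and reads for HEL, per the file headers, and the counts are whole numbers that were not scaled. HISAT2 2.1.0 and featureCounts 1.6.1 are named in the submitters' processing notes without a role. The libraries used the dUTP method on polyadenylated RNA, per the labels' protocols. The strand setting of counting is not given in the sources used here. Samples were grouped by the labels. The columns of K562 controls 2 and 3 did not differ in any of the 28131 genes and were used as 1 library, which left 8 K562 and 4 HEL libraries. Whether replicates came from separate cultures is not given, so p-values measure the spread between these libraries only.

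Genes were kept with filterByExpr (minimum count 10, minimum total count 15), scaled by TMM and tested with the quasi-likelihood test of edgeR 4.0.16 in R 4.3.3, with K562 and HEL in separate fits and a joint fit for their difference. P-values were adjusted by Benjamini-Hochberg over all genes tested, with a threshold of 0.05. The SE given with an edgeR fold change is its absolute log2 value divided by the square root of the F statistic. The script was tested on simulated data. DESeq2 1.42.0 and limma 3.58.1 were alternatives, beside other scalings, no filter, a replicate block, duplicated columns kept, fits of the compared groups alone, and leaving out each library. RPKM values divide CPM by exonic length. A floor of 3 counts covers counting error only. Members and gene lists were chosen with earlier results of these data known. The members and the targeted genes were named throughout, and the 3 genes nearest in pattern to EGR1 and to JUN. From each list the text draws on at most 2 genes per direction and comparison, those of the largest change past the threshold with a mean of at least 1 CPM. Positions are those of the deposited tables on GRCh38, and promoters come from RefSeq on GRCh38.p14. The 61 other samples were not analysed here.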

Additional observations from a re-analysis of the deposited data

Results flagged for a closer look

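The response of JUN to DOT1L loss differed between the cell lines by the interaction test of the joint fit: the log2 fold change in K562 minus that in HEL was -0.52 (edgeR adjusted p 0.00243). Of 15367 tested genes, 38.9% passed this test and 44.2% had a larger difference than JUN. JUN rose in both lines, in 3 of 3 knockout libraries of K562 and in 2 of 2 knockdown libraries of HEL. Knockout against knockdown, fragment against read counting and the cell line go together in this test and cannot be told apart.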

How the results depend on the processing

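With the replicate number of the labels as a block, the members past the threshold were 7 in the DOT1L KO, 8 in the ENL KO, 9 between the knockouts, 6 in HEL and 2 for the difference of the lines. In the main fits 51.1%, 41%, 60.2%, 55% and 38.9% of all tested genes passed. Their shares under the block are not given here, so these counts are not read as a result about the members. FOSL1 and IER2 were gained in the DOT1L KO, JUNB in the ENL KO, EGR1 and JUND between the knockouts, and IER2 for the difference. The pairing by number was not established, since not every r was over 0.1: deviations of same-numbered knockout libraries correlated with r of 0.183, 0.0338 and 0.0775, those of control with DOT1L KO with 0.118 and 0.0928, and those of control with ENL KO with 0.138 and 0.0486. All were positive, and DOT1L KO 2 correlated better with ENL KO 3 (0.0686) than with its own number. In HEL the same-number correlation was -0.00462. DESeq2 called 3 members and 4561 genes in HEL, against 6 and 6951. Upper-quartile scaling in HEL moved the higher calls from 49.1% to 61.4% of all calls, and no scaling moved the median of all genes by over 0.1. Leaving out each library gave 3 to 5 members in the DOT1L KO, 4 to 8 in the ENL KO, 6 to 8 between the knockouts, 4 to 5 in HEL and 1 to 2 for the difference. Over all genes these fits gave 5664 to 6809, 4094 to 5658, 7665 to 8274, 5884 to 6207 and 4887 to 6473.

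Directions turned for values short of the threshold. FOS in the DOT1L KO was -0.16 with the replicate block and ranged from -0.26 (without DOT1L KO 3) to 0.29 when 1 library was left out, and its difference between the lines was -0.10 with the block and ranged from -0.083 to 0.49. The same ranges were -0.0096 to 0.10 for JUNB in the DOT1L KO and -0.0066 to 0.18 for FOSL1 in the ENL KO. The HEL ranges were -0.20 to 0.67 for FOSB, -0.071 to 0.16 for DUSP6 and -0.010 to 0.16 for IER2. The difference of ATF3 between the lines ranged from -0.013 to 0.29. The cause of these shifts was not tested. JUN, in all 4 comparisons and for the difference of the lines, and EGR1 and JUND, in the DOT1L KO and in HEL, kept their direction and their call under every alternative run. Depth limits FOS and FOSB in HEL and DUSP6 in K562, which have 0 to 11 counts a library.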
